A study of Mus musculus with 4 samples.

Results

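The growth factor receptors described are 6 genes chosen by name, of the 22574 genes in the count matrix. They are Erbb4, Erbb2 and Egfr, the family of receptors for neuregulins and EGF-like ligands, Igf1r and Insr, which bind insulin-like growth factors and insulin, and Fgfr1, which binds fibroblast growth factors. Single-nucleus RNA sequencing (snRNA-seq) had been run on total cardiac nuclei of neonatal mouse hearts, and the nuclei described are those the authors kept as cardiomyocytes. There were 4 libraries, 1 each of WT-Sham, WT-MI, KO-Sham and KO-MI. WT stands for Nrf1 fl/fl mice, in which loxP sites flank the gene for the transcription factor Nrf1, and KO for Nrf1 fl/fl mice that also carried aMHC-Cre, a Cre recombinase driven in cardiomyocytes by the alpha myosin heavy chain promoter. Both genotypes carried the loxP alleles in the C57BL/6 background. MI is myocardial infarction, made by tying off the left anterior descending artery, and Sham the same operation without ligation, both at postnatal day 3, with hearts taken on the following day. Each library was made from the tissue below the ligation plane of 4 to 6 hearts pooled by genotype, so animals cannot be told apart within a library.

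All 6 genes encode receptor tyrosine kinases, which sit in the cell membrane, work as pairs, and phosphorylate each other and adaptor proteins inside the cell. Egfr, Erbb4 and Fgfr1 are brought together by their ligands, whereas Igf1r and Insr are linked as pairs before a ligand binds. Erbb2 has no known ligand of its own and signals as the partner of a ligand-bound family member, and in cardiomyocytes the neuregulin receptor Erbb4 is its main partner. Igf1r and Insr share adaptors such as Irs1 and pass signals to the kinases PI3K and AKT, whereas Fgfr1 relies on the adaptor Frs2 and the RAS-MAPK kinases. Neuregulin and IGF signalling are known for their part in the growth and division of cardiomyocytes in the fetal and newborn heart. The comparisons ask how the levels of these receptors differed after infarction, between the genotypes and between the cardiomyocyte populations CM1, CM2, CM4 and CM5 named by the authors.

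With 1 library per group there was no replicate, so no test was made and each difference describes the libraries compared. Levels are counts scaled to a total of 1000000 (CPM) of the unique molecular identifiers (UMIs, counts of captured RNA molecules) added up within each library or population, with an exact 95% Poisson interval, and ratios carry an exact conditional binomial interval. Both cover counting error only. The libraries held 1406 (WT-Sham), 2003 (WT-MI), 3328 (KO-Sham) and 1848 (KO-MI) nuclei, 4984625 to 9106522 UMIs in all, and a median of 2572 to 3959 UMIs per nucleus. All 8 cardiomyocyte markers checked, Tnnt2 and Myh6 among them, were present in every library at 33905 to 37251 CPM in sum. Markers of other cells were present too: over all nuclei the endothelial list summed to 545 to 892 CPM, the fibroblast list to 997 to 1197 CPM, the red blood cell list to 2123 to 4519 CPM, and the myeloid list to 63.0 and 43.5 CPM in the Sham libraries (WT, KO) and 132 and 87.0 CPM in the MI libraries. Of the barcode sequences, 9 were found in more than 1 library. The targeted gene, Nfe2l1, which encodes Nrf1, stood at 62.2 (WT-Sham), 47.4 (WT-MI), 50.5 (KO-Sham) and 55.3 CPM (KO-MI), so for the MI pair it went against the labels. Libraries are therefore named by their labels throughout.

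The 6 genes differ widely in size, which matters because introns were counted. In GRCm38, Erbb4 (ENSMUSG00000062209) spans 1076 kb of the minus strand of chr1:68032186-69108059, of which 1.15% is exonic. Igf1r (ENSMUSG00000005533) spans 281 kb of the plus strand of chr7:67952827-68233668 and overlaps no annotated gene. Insr (ENSMUSG00000005534) covers 158 kb of chr8:3122061-3279617, minus strand, and Egfr (ENSMUSG00000020122) 166 kb of chr11:16752203-16918158, plus strand. Fgfr1 (ENSMUSG00000031565) covers 62.1 kb of chr8:25513654-25575718, plus strand, and overlaps an antisense gene that held 77 UMIs. Erbb2 (ENSMUSG00000062312) covers 25.2 kb of chr11:98412470-98437716, plus strand. Its last bases overlap Mien1, on the other strand, which held 489 UMIs against 255 for Erbb2. The use of strand in the counting is not given in the sources used here, so the low counts of Erbb2 are uncertain.

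The promoters of Erbb4 and Igf1r are shown because these were the receptors with the most UMIs and differed in opposite directions between MI and Sham in CM5 nuclei. The sequences are the 250 bases before the RefSeq start in GRCm38.p6, 5′ to 3′ on the gene's strand, chr1:69108060-69108309 for Erbb4 and chr7:67952007-67952256 for Igf1r. For Igf1r the RefSeq start lies upstream of the start in the annotation used for the spans. Capitals mark GC boxes, the letters GGGCGG on either strand.
Erbb4: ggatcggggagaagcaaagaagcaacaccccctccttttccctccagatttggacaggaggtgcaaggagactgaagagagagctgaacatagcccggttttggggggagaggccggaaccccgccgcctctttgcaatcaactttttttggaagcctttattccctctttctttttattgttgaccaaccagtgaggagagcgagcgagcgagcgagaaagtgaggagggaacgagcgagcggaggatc
Igf1r: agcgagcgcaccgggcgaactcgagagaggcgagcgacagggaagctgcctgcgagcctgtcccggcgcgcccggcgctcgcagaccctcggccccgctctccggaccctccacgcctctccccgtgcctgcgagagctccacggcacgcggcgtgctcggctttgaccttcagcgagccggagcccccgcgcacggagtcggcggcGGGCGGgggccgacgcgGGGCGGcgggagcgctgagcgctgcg
The Igf1r window holds 2 GC boxes and 42 CG pairs and is 77.6% G or C. The Erbb4 window holds no GC box and 12 CG pairs and is 54% G or C. Over the same 250 bases of all 32851 RefSeq promoters, 32.7% held a GC box, the median was 6 CG pairs and the median GC content was 52.4%. AP-1 motifs (TGANTCA, 6.75% of windows), antioxidant response elements (TGACNNNGC, 10.2%) and FOXO motifs (TGTTTAC, 3.17%), searched on both strands, were found in none of the 4 receptor windows available, which were those of Erbb4, Igf1r, Egfr and Erbb2.

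Erbb4 was the receptor with the most UMIs, 42424 over all nuclei, which ranked it 43 among all genes. Igf1r followed with 15736 and Insr with 11528, whereas Fgfr1 had 798, Erbb2 255 and Egfr 85. Per length the order changed. Per 100 kb of gene span, Insr stood at 223 to 275 CPM in the 4 libraries, Igf1r at 126 to 252, Erbb4 at 116 to 169, Fgfr1 at 31.5 to 60.6, Erbb2 at 27.9 to 41.3 and Egfr at 1.32 to 2.13. Per kb of exons, Erbb4 led with 101 to 147 CPM, Igf1r and Insr overlapped at 21.1 to 42.1 and 25.5 to 31.5 CPM, Fgfr1 stood at 1.98 to 3.81, Erbb2 at 1.35 to 2.002 and Egfr at 0.194 to 0.312. Insr, Igf1r and Erbb4 therefore formed an abundant group and Fgfr1 and Erbb2 a scarce one on both scales, with Egfr below all others, while the order inside the abundant group depended on the scale.

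**Figure D1:**
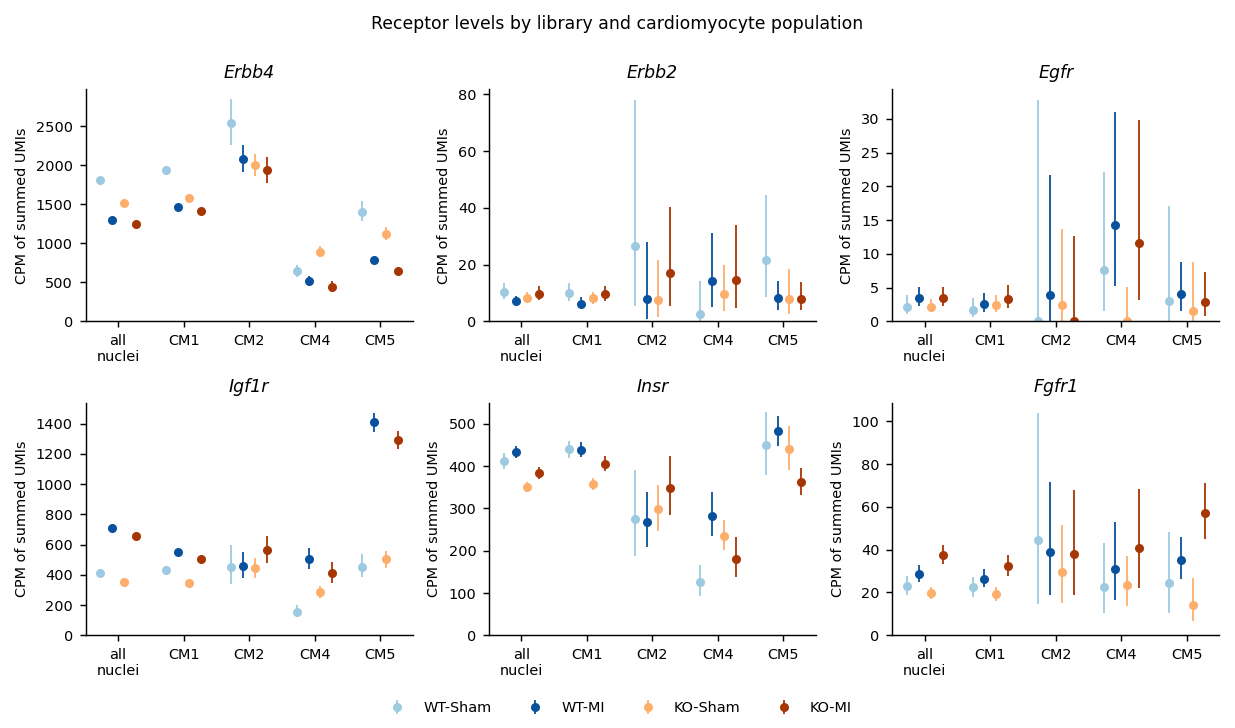
CPM of the 6 receptors (y axis, linear, from 0) in all nuclei and in each population (x axis) of the 4 libraries (colours), with bars for the exact 95% Poisson interval. Igf1r reached 1408 CPM (WT-MI) and 1293 CPM (KO-MI) in CM5, far above the other sums, while Erbb4 was highest in CM2 and lowest in CM4 in every library.

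Erbb4, the neuregulin receptor, was lower in the libraries labelled MI than in those labelled Sham. Over all nuclei it stood at 1813 CPM (interval 1775 to 1850) in WT-Sham, 1306 (1281 to 1331) in WT-MI, 1518 (1493 to 1544) in KO-Sham and 1247 (1222 to 1273) in KO-MI. None of the intervals overlapped, and both MI libraries lay below both Sham libraries. The log2 ratio of MI over Sham was -0.47 (-0.51 to -0.43) for the WT labels and -0.28 (-0.32 to -0.25) for the KO labels, both short of 1.5-fold. The medians over all genes tested were -0.064 and 0.044. With the populations held at fixed weights the ratios were -0.43 and -0.24.

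The ratio was farther from zero in CM5, which made up 6.33% of nuclei in WT-Sham, 16.9% in WT-MI, 7.03% in KO-Sham and 19.2% in KO-MI. Erbb4 stood there at 1408 CPM in WT-Sham and 782 in WT-MI, and at 1124 in KO-Sham and 642 in KO-MI. The log2 ratios were -0.85 (-1.01 to -0.69) for the WT labels and -0.81 (-0.95 to -0.67) for the KO labels, both past 1.5-fold lower. In CM1, the largest population, they were -0.41 (-0.45 to -0.36) and -0.16 (-0.20 to -0.12). Among nuclei poor in UMIs of other cell types, the CM5 ratio of the KO labels was -0.58, no longer past 1.5-fold. The cardiomyocyte markers in CM5 summed to 37046 CPM in WT-Sham, 26723 in WT-MI, 38331 in KO-Sham and 27116 in KO-MI. They were thus lower after MI too, and their part in the Erbb4 ratios was not tested.

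The populations stood in the same order for Erbb4 in each of the 4 libraries. It was highest in CM2 (1937 to 2542 CPM), then CM1 (1421 to 1936), CM5 (642 to 1408) and CM4 (439 to 894). The mean log2 ratio over CM1 was 0.42 ± 0.08 (SD over the 4 libraries) in CM2, -0.75 ± 0.33 in CM5 and -1.41 ± 0.39 in CM4. The libraries differ in genotype and surgery, so this SD includes differences between groups and is no measure of replicates. The populations had been clustered on these same counts, so these ratios are a description. TMM scaling lowered the CM2 ratio to 0.16, since that scaling moved the median of all genes in CM2 over CM1 by -0.17 to -0.35.

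CM4 nuclei were poorer in long genes altogether. The median log2 ratio of CM4 over CM1 among genes of 300 kb or more was -1.38 (WT-Sham), -0.74 (WT-MI), -0.66 (KO-Sham) and -1.06 (KO-MI), and among genes under 10 kb it was 1.07, 0.88, 0.50 and 0.93. Erbb4 had ratios of -1.59, -1.51, -0.83 and -1.69 in the same order, below the median of genes of like span each time. CM4 nuclei also held fewer UMIs (medians of 1716 to 2394, against 2632 to 4044 in CM1) and a larger percent of mitochondrial UMIs (medians of 9.47 to 14.6, against 5.06 to 8.78). In CM5 over CM1 the medians of genes of 300 kb or more were only -0.14 to -0.21, against -0.46 to -1.15 for Erbb4.

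**Figure D2:**
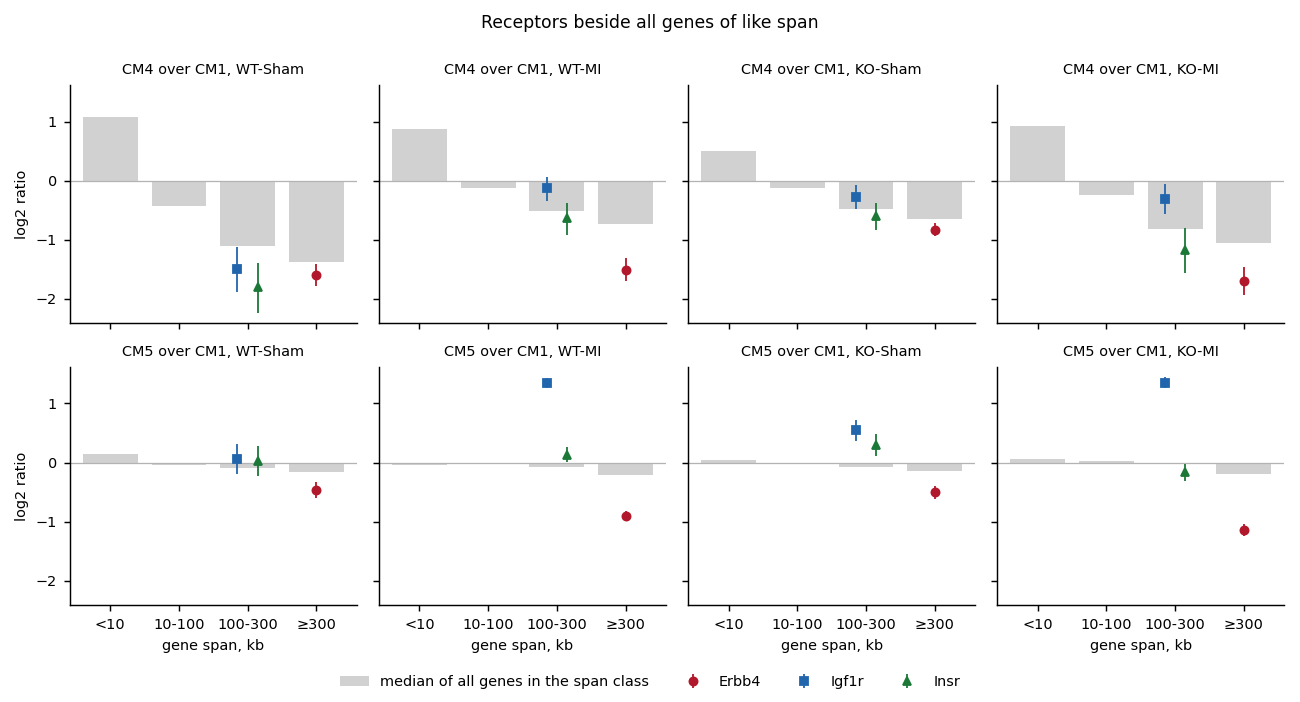
Log2 ratio of CM4 over CM1 (top row) and CM5 over CM1 (bottom row) in each library (columns) by gene span in kb (x axis): grey bars are the median of all genes tested in the span class and points are Erbb4, Igf1r and Insr with 95% counting intervals. In CM4 the medians drop from short to long genes and the receptors lie at or below zero with them, while in CM5 the medians are near zero, Igf1r is at 1.35 in both MI libraries and Erbb4 is below zero in all 4.

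Erbb2, the partner of Erbb4 without a ligand of its own, was low in every library, at 10.4 CPM in WT-Sham (52 UMIs), 7.04 in WT-MI (56), 8.24 in KO-Sham (75) and 9.78 in KO-MI (72). Their intervals all overlapped. The log2 ratio of MI over Sham was -0.57 (-1.14 to 0.01) for the WT labels and 0.25 (-0.24 to 0.73) for the KO labels, so at this depth no difference could be detected. In CM1 the WT ratio of -0.67 and the ratio of KO-MI over WT-MI of 0.63 were past 1.5-fold, but their intervals, -1.36 to 0.01 and -0.02 to 1.28, included no change. The first was -0.37 after thinning and the second 0.36 among nuclei poor in UMIs of other cell types. After each nucleus was thinned to 1000 UMIs, 0.72% to 0.97% of nuclei held an Erbb2 UMI, and 2.19% to 3.79% did without thinning. Nuclei with a UMI of both Erbb4 and Erbb2 made up 0.51% to 0.65% of thinned nuclei, beside products of the separate shares of 0.51% to 0.59%.

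Egfr was the scarcest, with 11 UMIs in WT-Sham, 28 in WT-MI, 20 in KO-Sham and 26 in KO-MI. These were 2.21, 3.52, 2.20 and 3.53 CPM, and their intervals overlapped. Only the MI pair reached 50 UMIs, with a ratio of KO over WT of 0.005 (-0.82 to 0.83). In CM4 it stood at 7.59 CPM in WT-Sham, 14.2 in WT-MI and 11.6 in KO-MI from 3, 6 and 4 UMIs, and at 0 in KO-Sham, where a count of 0 among 351 nuclei allows a share of up to 1.05% of nuclei with a UMI (exact upper bound). In WT-MI, 4 of the 6 UMIs came from 1 nucleus. Fibroblast markers, which were highest in CM4 at 2030 to 2531 CPM against 916 to 1079 in CM1, stood beside these values, and their part in them was not tested. Erbb3, the other neuregulin receptor, which is known from Schwann cells, stood at 5.49 to 6.66 CPM in the 4 libraries, with Schwann cell markers at 8.70 to 15.9 CPM in sum.

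Igf1r, the receptor for insulin-like growth factors, was higher in the libraries labelled MI. Over all nuclei it stood at 415 CPM (397 to 433) in WT-Sham, 707 (689 to 726) in WT-MI, 355 (343 to 367) in KO-Sham and 654 (636 to 673) in KO-MI. Both MI libraries lay far above both Sham libraries, and no intervals overlapped. The log2 ratio of MI over Sham was 0.77 (0.70 to 0.84) for the WT labels, a 1.71-fold difference, and 0.88 (0.82 to 0.95) for the KO labels, a 1.84-fold difference. With fixed weights for the populations, which removes the larger share of CM5, the ratios were 0.66 and 0.72.

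In CM5 the level of Igf1r was 455 CPM (385 to 535) in WT-Sham, 1408 (1348 to 1470) in WT-MI, 502 (449 to 560) in KO-Sham and 1293 (1235 to 1354) in KO-MI. Both MI libraries lay far above both Sham libraries, whose intervals overlapped each other. CM5 endothelial markers, at 941, 456, 826 and 572 CPM in the same order, and myeloid markers, at 73.8, 114, 45.6 and 86.2 CPM, differed between MI and Sham too, and their part in the ratios was not tested. The MI over Sham ratios were 1.63 (1.39 to 1.88) for the WT labels and 1.37 (1.19 to 1.54) for the KO labels, that is 3.09-fold and 2.58-fold. Over the alternatives tried they ran from 1.43 to 1.86 and from 1.22 to 1.42. In CM1 the ratios were 0.35 (0.27 to 0.43) and 0.56 (0.48 to 0.64), above the medians of all genes of -0.067 and 0.035 but short of 1.5-fold. CM5 over CM1 within a library was 0.07 in WT-Sham, 0.55 in KO-Sham, 1.35 in WT-MI and 1.35 in KO-MI. Of all genes tested, 12.2% (WT-MI) and 13.9% (KO-MI) were at least 1.5-fold higher in CM5 than in CM1, and 17.5% and 15.8% at least 1.5-fold lower, as Erbb4 was.

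**Figure D3:**
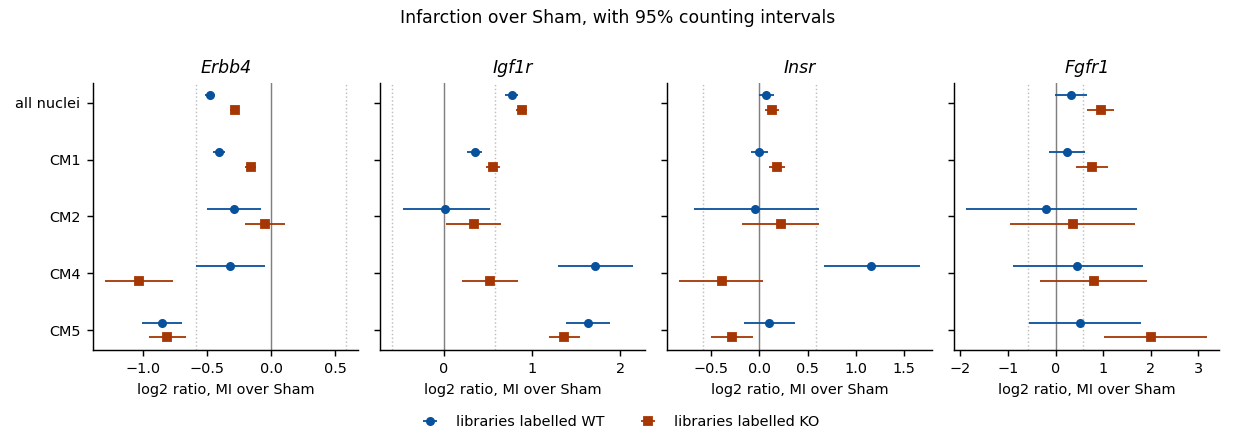
Log2 ratio of MI over Sham (x axis) of Erbb4, Igf1r, Insr and Fgfr1 in all nuclei and in each population (y axis), for the libraries labelled WT (blue circles) and KO (brown squares), with 95% counting intervals. Dotted lines mark 1.5-fold. In CM5 Erbb4 lies left of zero and Igf1r right of it for both genotypes, and in CM4 the genotypes part for Erbb4, Igf1r and Insr.

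The higher level in CM5 of the MI libraries was spread over many nuclei. After thinning to 1000 UMIs, 67.6% (62.3 to 72.5) of CM5 nuclei in WT-MI and 65.6% (60.4 to 70.6) in KO-MI held an Igf1r UMI, against 32.6% (23.0 to 43.3) in WT-Sham and 38.9% (32.6 to 45.5) in KO-Sham, by the exact binomial interval. Unthinned, the shares were 95.6%, 93.5%, 69.7% and 65.4% in that order. At least 3 Igf1r UMIs were found in 17.4% of thinned CM5 nuclei in WT-MI and 16.1% in KO-MI, against 0 of 89 nuclei in WT-Sham and 2.56% in KO-Sham. Of the Igf1r UMIs of CM5, 13.4% in WT-MI and 12.2% in KO-MI lay in the 10 nuclei with the most. Erbb4 went the other way, with 42.2% and 38.9% of thinned CM5 nuclei in WT-MI and KO-MI against 65.2% and 58.5% in WT-Sham and KO-Sham. No cell type that should lack these receptors is among the nuclei, so a share due to free RNA cannot be given.

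**Figure D4:**
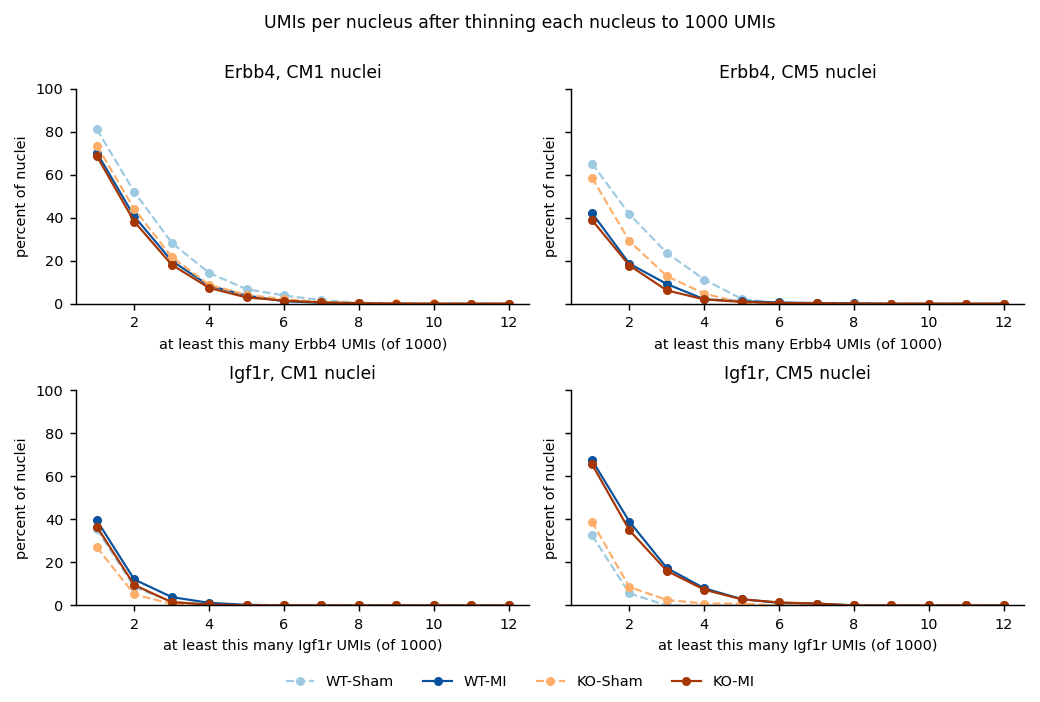
Percent of nuclei (y axis, 0 to 100) with at least the number of Erbb4 or Igf1r UMIs on the x axis after thinning to 1000 UMIs per nucleus, in CM1 (left) and CM5 (right), with MI libraries as solid and Sham libraries as dashed lines. In CM5 the MI curves of Igf1r lie above both Sham curves (67.6% and 65.6% against 32.6% and 38.9% at 1 UMI), and those of Erbb4 below them.

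Within thinned nuclei the receptors were found together about as often as their shares gave. In CM5 of WT-MI, 27.7% of nuclei held both Erbb4 and Igf1r UMIs, beside a product of the shares of 28.5%. In KO-MI the values were 24.2% and 25.5%. For Igf1r and Insr they were 24.8% and 23.1% in WT-MI and 20% and 19.2% in KO-MI. Low Erbb4 and high Igf1r thus stood side by side in the sums of CM5 without a visible split into separate nuclei, at a depth of 1000 UMIs.

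By the label transferred from the earlier reference, most CM5 nuclei were CM2 there (743), and most CM2 nuclei were CM5 (197). No nucleus was CM2 or CM5 by both labels, and results given for CM2 and CM5 follow the deposited population names. CM5 nuclei with the transferred label CM2 had higher Igf1r levels than those with CM1 in each library, and lower Erbb4 levels in the MI libraries. Their Igf1r level was 1496 CPM in WT-MI (268 nuclei) and 1371 in KO-MI (287), against 1105 in WT-MI (57) and 977 in KO-MI (50) for CM5 nuclei with the transferred label CM1. Erbb4 stood at 747 and 617 CPM in the first set and 881 and 738 in the second. In WT-Sham, CM5 nuclei with the transferred labels CM2 and CM1 stood at 555 and 321 CPM for Igf1r and at 1505 and 1220 for Erbb4, and in KO-Sham at 585 and 381 for Igf1r and at 1113 and 1171 for Erbb4. The intervals of both sets overlapped for Erbb4 in every library, MI and Sham alike, and for Igf1r in none.

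Insr, the insulin receptor, had ratios closer to zero. It stood at 412 CPM (394 to 430) in WT-Sham, 434 (419 to 448) in WT-MI, 351 (339 to 363) in KO-Sham and 385 (371 to 399) in KO-MI. The ratios of MI over Sham were 0.07 (-0.01 to 0.15) for the WT labels and 0.13 (0.06 to 0.21) for the KO labels. In CM1 they were -0.002 and 0.18. In CM5 Insr stood at 449 CPM in WT-Sham, 483 in WT-MI, 441 in KO-Sham and 363 in KO-MI, with MI over Sham at 0.10 (-0.16 to 0.37) and -0.28 (-0.50 to -0.07). The ratios of Igf1r in the same nuclei lay outside these intervals. Insr was lower in CM4 than in CM1 in every library, by log2 ratios of -1.80 (WT-Sham), -0.64 (WT-MI), -0.60 (KO-Sham) and -1.17 (KO-MI), beside medians of -1.11, -0.52, -0.49 and -0.81 for genes of 100 to 300 kb.

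In CM4 the levels ran differently under the WT and KO labels. Igf1r stood there at 154 CPM (61 UMIs) in WT-Sham, 506 (213) in WT-MI, 285 (208) in KO-Sham and 410 (141) in KO-MI, and Insr at 126 (50), 282 (119), 236 (172) and 180 (62). WT-Sham was the lowest of the 4 for both. The MI over Sham ratios were 1.71 for Igf1r and 1.16 for Insr under the WT labels, when 25.2% of all genes tested in CM4 were 1.5-fold higher. Under the KO labels they were 0.53 and -0.38, while Erbb4 was 1.5-fold lower (-1.03, -1.29 to -0.77), as were 16.9% of all genes. Genes of 100 kb or more had medians of 0.49 for WT and -0.28 for KO in the same comparisons. Between Sham and MI, myeloid markers in CM4 stood at 104 and 287 CPM for WT and 64.3 and 125 for KO, red blood cell markers at 12805 and 8411 for WT and 7833 and 3538 for KO, and the median percent of mitochondrial UMIs at 14.6 and 10.8 for WT and 11.6 and 9.47 for KO. The part of these in the ratios was not tested. Among CM4 nuclei poor in UMIs of other cell types, 11 to 90 per library, the WT ratio of Insr was 0.295, no longer past 1.5-fold, and that of Igf1r was 1.91. For the WT labels TMM moved the median of all genes in CM4 by -0.17.

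Igf2r, which takes up IGF2 for breakdown, stood at 497 to 569 CPM, and Insrr had no UMI, which allows up to 0.740 CPM in WT-Sham and up to 0.405 in KO-Sham by the exact upper bound. Igf2r overlaps an antisense gene with 59689 UMIs, so its level is uncertain. Its MI over Sham ratio in CM5 was 0.52 (0.29 to 0.75) for the WT labels and 0.64 (0.46 to 0.82) for the KO labels, above the medians of 0.007 and 0.105.

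Fgfr1 was low but higher after MI in the libraries labelled KO. It stood at 23.1 CPM (19.1 to 27.7) in WT-Sham, 28.7 (25.1 to 32.6) in WT-MI, 19.5 (16.8 to 22.6) in KO-Sham and 37.6 (33.3 to 42.3) in KO-MI. The KO-MI library was highest, with an interval above those of the others. The ratio of MI over Sham was 0.94 (0.67 to 1.23), or 1.93-fold, for the KO labels and 0.31 (-0.02 to 0.65) for the WT labels. The difference between these ratios was not tested. In CM5 the levels were 24.6 (8 UMIs), 35.2 (52), 14.2 (9) and 57.0 CPM (80), so KO-MI was again highest. There MI over Sham was 2.01 (1.01 to 3.19) for the KO labels and 0.52 (-0.57 to 1.80) for the WT labels, and KO over WT under the MI labels was 0.69 (0.17 to 1.23). The first rests on 9 UMIs in KO-Sham.

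Fgfr1 is also known from fibroblasts, whose markers summed to 1017 CPM in CM5 of KO-Sham and 1089 in CM5 of KO-MI. Among nuclei poor in UMIs of other cell types, the KO ratio was 0.88 over all nuclei and 1.58 in CM5. After thinning the CM5 ratio was 3.04, with an Fgfr1 UMI in only 2 of 234 KO-Sham nuclei. In CM5 nuclei with the transferred label CM2 the ratio was 2.45, from 4 UMIs in KO-Sham. Fgfr2, another FGF receptor, had more UMIs than Fgfr1 at 240 to 281 CPM, and MI over Sham ratios of -0.21 and 0.02. Its annotated span of 2961 kb includes a read-through model and overlaps 69 other annotated genes, 36 of them on the same strand. The level and ratios of Fgfr2 are therefore uncertain, and no level per span is compared. Fgfr3 had 5 to 16 UMIs per library and Fgfr4 0 to 6. The co-receptors Klb and Kl had 2 to 8 and 0 to 3 UMIs. Fgfrl1, which lacks the kinase domain, stood at 5.22 CPM in WT-Sham, 3.90 in WT-MI, 5.16 in KO-Sham and 2.72 in KO-MI.

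Of the 6 receptors, 5 had 50 or more UMIs in the WT pair, and 1 of them, Igf1r, was called 1.5-fold higher after MI and none lower. Among all 11362 genes tested in that pair, 10.2% were called higher and 13.7% lower. In the KO pair 2 of 5, Igf1r and Fgfr1, were called higher and none lower, beside 11.7% and 10.8% of 11857 genes. In CM1, none was called higher and Erbb2 lower for WT (8.08% and 11.9% of all genes), and Fgfr1 higher for KO (10.0% higher and 10.9% lower). In CM5, Igf1r was called higher and Erbb4 lower of 4 tested for WT (21.2% and 20.2%), and Igf1r and Fgfr1 higher and Erbb4 lower of 4 for KO (24.1% and 16.6%). These shares are read as descriptions of the genes named, since the list is short. In CM4 over CM1, Erbb4 was called lower in all 4 libraries, as were 45.2% (WT-Sham), 28.1% (WT-MI), 20.4% (KO-Sham) and 36.9% (KO-MI) of all genes tested. Insr was called lower in all 4 as well, and Igf1r only in WT-Sham, while Erbb2 was called higher in KO-MI from 5 UMIs in CM4, at 0.60 with an interval of -1.08 to 1.92 that includes no change, beside 26.0% of all genes. In CM5 over CM1, Fgfr1 was called higher in KO-MI, at 0.82 (0.42 to 1.21).

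Between genotypes no receptor was called over all nuclei. Under the MI labels the ratios of KO over WT were -0.07 (-0.11 to -0.03) for Erbb4, -0.11 (-0.17 to -0.06) for Igf1r, -0.17 (-0.25 to -0.10) for Insr and 0.39 (0.14 to 0.65) for Fgfr1. All were small, in a pair in which only 1.89% of all genes were called higher and 1.73% lower. Under the Sham labels the ratios were -0.26 (-0.29 to -0.22) for Erbb4, -0.22 (-0.30 to -0.14) for Igf1r, -0.23 (-0.31 to -0.15) for Insr and -0.24 (-0.59 to 0.11) for Fgfr1, with 3.96% of genes called higher and 3.08% lower. TMM moved the median of all genes by 0.10 in this pair, and after subtracting that median as measured (-0.094) the ratios were -0.16, -0.13, -0.14 and -0.15. Genes of 100 to 300 kb had a median of -0.198 and longer genes of -0.205, close to the ratios of Erbb4, Igf1r and Insr. Egfr, which spans 166 kb, had too few UMIs to be tested (20 in KO-Sham, 11 in WT-Sham), with a ratio of -0.007 (-1.137 to 1.201). KO-Sham also differed from WT-Sham in median UMIs (2572 against 3553.5), median percent of mitochondrial UMIs (8.98 against 6.58) and endothelial markers (892 against 591 CPM), and their part in the ratios was not tested. Within populations the calls between genotypes were Erbb2 higher in CM1 (2.33% of genes) and Fgfr1 higher in CM5 (5.44%) under the MI labels, Insr lower in CM4 under the MI labels (13.9%), and Igf1r and Insr higher in CM4 under the Sham labels (16.3%). In CM4 nuclei poor in UMIs of other cell types the Insr ratios were 0.054 (MI) and -0.047 (Sham), so neither call nor direction held there.

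The ligands were counted in the same nuclei. Hbegf, an EGF-like ligand of Egfr and Erbb4, stood at 8.63 CPM in WT-Sham, 41.5 in WT-MI, 9.33 in KO-Sham and 56.1 in KO-MI. In CM5 it stood at 3.07, 124, 11.0 and 200.1 CPM, with only 1 and 7 UMIs in the Sham libraries. A UMI of Hbegf was found in 31.3% of CM5 nuclei in WT-MI and 37.5% in KO-MI, and the 10 nuclei with the most held 30.05% and 29.2% of its UMIs. Egfr stood at 4.06 and 2.85 CPM in the same sums. Nrg1, the main neuregulin of the heart, which endothelial cells are known to make, stood at 6.22, 12.2, 5.82 and 11.0 CPM over all nuclei. Of the 11 ErbB ligands, 6 had enough UMIs, and 3 were called higher and 2 lower for WT, 2 higher and none lower for KO. Among all genes tested, 10.2% were called higher and 13.7% lower for WT, and 11.7% higher and 10.8% lower for KO. Hbegf and Nrg1 were the ligands called higher for both, and Tgfa, at 0.77 with an interval of -0.15 to 1.76, for WT alone. Egf and Nrg4 were those called lower for WT. Egf stood at 29.7 CPM in WT-Sham and 15.8 in WT-MI.

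Igf1 and Igf2, the ligands of Igf1r, stood at 59.8, 79.6, 60.2 and 86.3 CPM and at 121, 74.4, 101 and 89.3 CPM. In CM5, where Igf1r was highest, Igf1 was lower after MI, at 67.7 CPM in WT-Sham and 31.8 in WT-MI and at 50.4 in KO-Sham and 23.5 in KO-MI. Igfbp3, which binds IGFs outside the cell, stood at 4.61, 27.9, 4.94 and 26.6 CPM, so both MI libraries were above both Sham libraries, and Igfbp5 at 82.0, 45.1, 74.0 and 39.7. Of the 10 ligands and binding proteins of this family in the list, 7 were tested, with 1 higher and 3 lower for WT and 1 higher and 1 lower for KO. Among 17 FGF ligands 4 were tested, with 2 lower for WT and 1 higher and 1 lower for KO. Over all genes tested the shares called were 10.2% higher and 13.7% lower for WT, and 11.7% and 10.8% for KO. Fgf9, known as a secreted FGF of the epicardium and endocardium, was lower both times, at -0.68 and -0.64, and Fgf16 was the other for WT at -0.88. Fgf1 had the most UMIs, at 230.5, 180.2, 180.3 and 169 CPM.

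Downstream of the receptors most genes were not called. The counts below stand beside shares of all genes tested of 10.2% higher and 13.7% lower for WT, and 11.7% and 10.8% for KO. Of 13 adaptors tested, 2 were higher and none lower in each genotype, Irs1 among them both times with ratios of 0.78 (0.60 to 0.97) for WT and 0.81 (0.65 to 0.96) for KO. Irs1 is the docking protein of Igf1r and Insr. Of 20 genes of the PI3K-AKT-mTOR list, 1 was called, Pik3cb, higher at 0.78 and 1.46. In the RAS-MAPK list Map2k1, the kinase that activates ERK, was called higher for KO at 0.61 and had a ratio of 0.40 for WT. Rps6ka2, a kinase downstream of ERK, was called lower both times, at -0.98 and -0.60. The genes with the most UMIs were not called in these lists, with Gab1 at -0.35 and 0.005, Nf1 at 0.51 and 0.48, and Grb10, a feedback inhibitor, at -0.38 and 0.03. Of 17 feedback inhibitors tested, 4 were higher and 1 lower for WT, and 6 higher and 1 lower for KO. Their medians were 0.17 and 0.27, beside -0.064 and 0.044 for all genes. Spred1 and Spred2, inhibitors of RAS-MAPK signalling, had ratios of 0.78 and 0.89 for WT and 0.957 and 0.996 for KO. Grb14, which binds and inhibits the insulin receptor, was the gene lower both times, at -0.91 (-1.01 to -0.81) and -0.73 (-0.82 to -0.63).

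**Figure D5:**
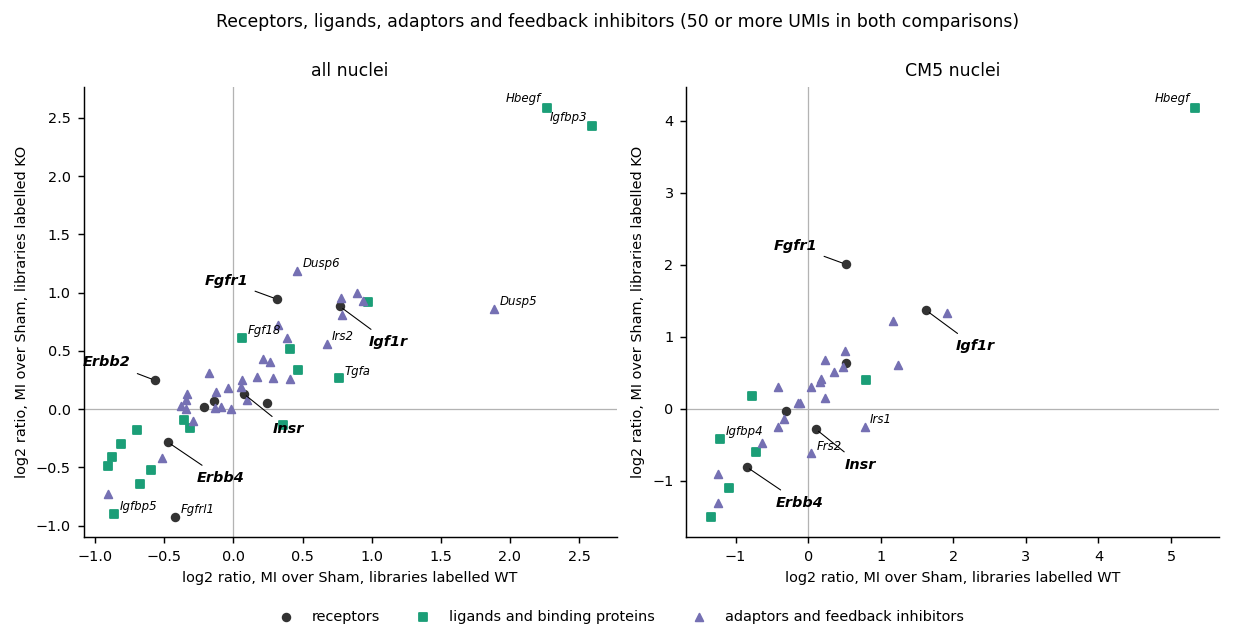
Log2 ratio of MI over Sham in the libraries labelled WT (x axis) and KO (y axis), for the receptors, ligands, adaptors and feedback inhibitors with 50 or more UMIs in both comparisons, in all nuclei (left) and CM5 (right); receptors of the list are in bold and crowded genes are not labelled. The 2 comparisons share no library, Igf1r lies at 0.77 and 0.88 on the left, and Hbegf lies farthest from zero on the right, where its WT-Sham value is 1 UMI.

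Genes whose levels followed those of a receptor over the 16 sums of library and population were sought among 4594 genes with 1000 or more UMIs, by Pearson's r of log2(CPM + 10). These sums share libraries and differ in depth, so r is a description. Nearest to Erbb4 were Ptprk (0.98), Prkd1 (0.98) and Auts2 (0.97), all genes that span 300 kb or more, as Erbb4 does. The part of gene length in these values of r was not tested. Among the nearest to Igf1r were Pcgf5 (0.97) and Ppp1r12a (0.97), and nearest to Insr were Alpk3 (0.94), Rhobtb1 (0.93) and Rbpms (0.93).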

How the data were processed

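Nuclei of 4 libraries had been sequenced by the authors with a 10x 3' kit, version 2 per the labels but version 3 per the methods of the paper. The authors aligned reads with Cell Ranger (version not given in the sources used here) to an mm10 pre-mRNA reference, so introns were counted, removed doublets with Scrublet, kept nuclei with 200 to 2500 genes, clustered them in Seurat 3 and kept cardiomyocytes. The deposited values are raw UMI counts per gene and nucleus, with a table of nuclei that gives the population, of which 9 columns were not used. That table also holds the percent of mitochondrial UMIs per nucleus as the authors computed it. The label transfer score in it, a fraction from 0 to 1, had been made by the authors in Seurat 3 and entered no result. The sum of each nucleus equalled its deposited UMI count.

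Counts were summed per library and population, divided by the total and given as CPM. A gene was called at 1.5-fold or more with 50 or more UMIs over both sums, and a count of 0 was bounded by its exact interval. With 1 library per group no test was made, and an additive model of genotype and surgery, which would leave 1 residual degree of freedom, was not run. Nuclei were thinned to 1000 UMIs with a fixed seed, leaving out 6 (WT-Sham), 1 (WT-MI), 0 and 0 nuclei. Spans came from the annotation of GRCm38 for 22122 symbols (98%), and promoters from RefSeq, which held 4 of the 6 receptors. The interval code was tested on simulated counts.

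The receptors and lists were chosen with earlier results of these data known. Named were the receptors, the other receptors of their families, ligands with 50 or more UMIs, in each downstream list the gene with the most UMIs and up to 2 called genes per direction, and the 3 genes with the nearest pattern. Some results under this rule are not reported here. Alternatives were TMM (edgeR 4.0.16, used for scaling only), median-of-ratios size factors, thinning, equal weight per nucleus, fixed population weights, other filters on genes and nuclei, and a long-gene reference. Python 3.11.15, numpy 2.4.6, scipy 1.17.1, pandas 2.3.3, matplotlib 3.10.9 and R 4.3.3 were used.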

Additional observations from a re-analysis of the deposited data

Results flagged for a closer look

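Insr in CM4 differed between the genotypes in opposite directions under the surgery labels. On the log2 scale KO over WT stood at -0.647 (-1.114 to -0.192) under the MI labels, where KO-MI held 62 UMIs and WT-MI 119, and 0.897 (0.435 to 1.382) under the Sham labels, from 172 UMIs in KO-Sham and 50 in WT-Sham. The difference between these ratios was not tested, since each group was 1 library. Among CM4 nuclei poor in UMIs of other cell types, of which there were 21 (WT-Sham), 16 (WT-MI), 90 (KO-Sham) and 11 (KO-MI), the ratios were 0.054 and -0.047. Genes of 100 kb or more had median ratios of -0.369 and 0.421 in the same comparisons.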

How the results depend on the processing

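No paired analysis was possible because the libraries carry no replicate numbers that groups share, and pairing by genotype or surgery was not run. Among called values the direction reversed for Insr in CM4 among low-share nuclei, with KO over WT at 0.054 (MI labels) and -0.047 (Sham labels). Insr under the MI labels was also short of 1.5-fold with TMM (-0.560) and relative to long genes (-0.278), and under the Sham labels relative to long genes Insr was 0.476 and Igf1r 0.463. Of 80 alternative values for counts of receptors called, 75 stayed within 1.5 times the reported count. Of 101 for mean ratios of populations over CM1, 89 moved by less than the spread over the libraries, which includes differences between the groups. Ratios of single receptors for MI over Sham and KO over WT had 642 alternative values. Of these, 561 stayed within the counting interval, 79 moved out of it and 2 reversed. For MI over Sham under the WT labels, the median over the receptors was 0.181 after thinning and 0.193 with genes of 20 or more UMIs, when 2 were called higher. There 1 was called lower with mitochondrial UMIs left out, with fixed population weights and among nuclei with a low share of UMIs of other cell types. Among such nuclei 1 was called higher for KO over WT under the MI labels. Under the Sham labels TMM gave a median of -0.138. Erbb4 in CM2 over CM1 was 0.163 with TMM, 0.305 with size factors, 0.508 after thinning, 0.335 in low-share nuclei and 0.150 without the 10 nuclei with most UMIs. That last setting left out of each sum the 10 nuclei richest in UMIs of the gene in question, a separate set for each gene. With it Igf1r was -0.375 and Insr -1.102. CM2 held only 27 nuclei in WT-Sham, against 1098 in CM1, so this setting lowers CM2 over CM1 by construction. Relative to genes of 100 kb or more, CM4 over CM1 was -0.628 for Erbb4, 0.226 for Igf1r and -0.275 for Insr, the last no longer 1.5-fold. In low-share nuclei Erbb4 was -1.823 there, and after thinning Fgfr1 was -0.037. The long-gene and low-share settings were added after seeing the data, the latter in place of a planned filter for nuclei without any UMI of other cell types, which left 3, 6, 21 and 3 nuclei (WT-Sham, WT-MI, KO-Sham, KO-MI) and gave no values. Causes of these shifts were not tested. Depth limited Erbb2 and Egfr.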
